A study of Mus musculus with 20 samples.

Results

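The 8 genes described here encode enzymes that build heme, from the ALA synthases Alas2 and Alas1 through Alad, Uros, Urod, Cpox and Ppox to ferrochelatase, Fech. Every probe set that the platform annotation assigns to these genes was taken, which gave 19 of the 45037 probe sets tested: 1 for Alas2, 2 each for Alas1, Alad, Uros and Urod, 3 each for Cpox and Ppox, and 4 for Fech. None of the 19 is shared with another gene. The arrays measured RNA that came down with an antibody against iron regulatory protein 1 (IRP1), an RNA-binding protein, in 2 kinds of reaction. In the IRP1 reactions, recombinant His-tagged IRP1 made in E. coli was added to extracted total RNA together with a rabbit polyclonal anti-IRP1 antibody. The control reactions held the same RNA and antibody without the recombinant protein. Each of 5 tissues had 2 IRP1 and 2 control arrays, 20 arrays in 10 groups, all from C57BL6/J mice of both sexes with no altered gene named in the labels.

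Duodenum, liver and spleen came from mice given an iron-poor diet (under 10 mg iron per kg) from weaning for 21 days, whereas bone marrow and brain came from mice of 8 to 10 weeks on an iron-normal diet. Diet and age therefore cannot be told apart from tissue. RNA was pooled over animals within a tissue, over 6 mice each for brain and bone marrow and over 4 for a duodenum sample, with no number in the labels for the others. Whether both replicas of a tissue came from separate pools is not stated, so what the p-values measure is spread among reactions and arrays, which may be technical. Each reaction took 50 µg of RNA, and about 120 ng of recovered RNA was amplified onto an Affymetrix Mouse430_2 array.

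Heme is made in a chain of enzyme steps that starts and ends in the mitochondrion. ALA synthase makes 5-aminolevulinic acid, Alad joins it into a pyrrole ring, Uros and Urod make and trim the porphyrin ring, Cpox and Ppox oxidise it, and ferrochelatase inserts the iron. Alas2 is the ALA synthase of red cell precursors, and its mRNA is known for an iron-responsive element (IRE) in the 5' UTR, a stem-loop that IRP1 binds when iron is scarce, so that translation is held back. Alas1 is the form used by other cells, is restrained by heme itself, and is not known for an IRE. The comparison asks which of the enzymes' mRNAs came down with IRP1 beyond the control.

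The promoter of Alas2 is shown because the erythroid level of the gene, described further on, is known to depend on GATA factors. In the RefSeq window from 250 bases before to 50 bases after the gene start (GRCm38.p6), the GATA motif AGATAA, searched on both strands, occurs as its reverse complement TTATCT. It starts 86 bases before the gene start, and the capitals mark it in this stretch of chrX:150547319-150547348 on the plus strand.
Alas2: ctactttgctttTTATCTttagcagaggcc
Windows were given for 7 of the 8 enzymes (10 windows), and those of Alas2 and Cpox hold the motif. Of 32851 mouse windows of the same length, 11.2% hold it. These matches describe the letters alone.

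Alas2 rose with IRP1 4.65-fold in the mean of the 5 tissues, and 0 of the other 7 enzymes were called higher. Values are log2 probe set signals as deposited, a change is the log2 signal with IRP1 minus that of the control, and a call is a Benjamini-Hochberg adjusted p under 0.05 over all 45037 probe sets in the limma fit to all arrays. In bone marrow, the site of red cell formation, Alas2 signals were 14.77 and 15.19 on the IRP1 arrays, against 12.42 and 12.72 on the control arrays. In spleen, which also forms red cells in mice, they were 12.89 and 14.02 with IRP1, against 11.57 and 11.90 in the control. Both IRP1 arrays lay above both controls in these erythroid tissues, and the bone marrow IRP1 signals lay near the brightest signal of any probe set on an array, 15.14 to 15.35.

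In liver, Alas2 read 10.2 and 9.50 with IRP1, against 7.90 and 7.65 in the control. In brain it read 9.33 and 8.36 with IRP1, against 5.92 and 6.16 in the control. In duodenum, the tissue with the lowest Alas2 control signal, it read 7.60 and 6.54 with IRP1, against 5.02 and 4.96 in the control. The groups did not overlap in any of the 5 tissues, although the brain and duodenum controls lay close to the array medians of 5.5 to 5.6.

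**Figure D1:**
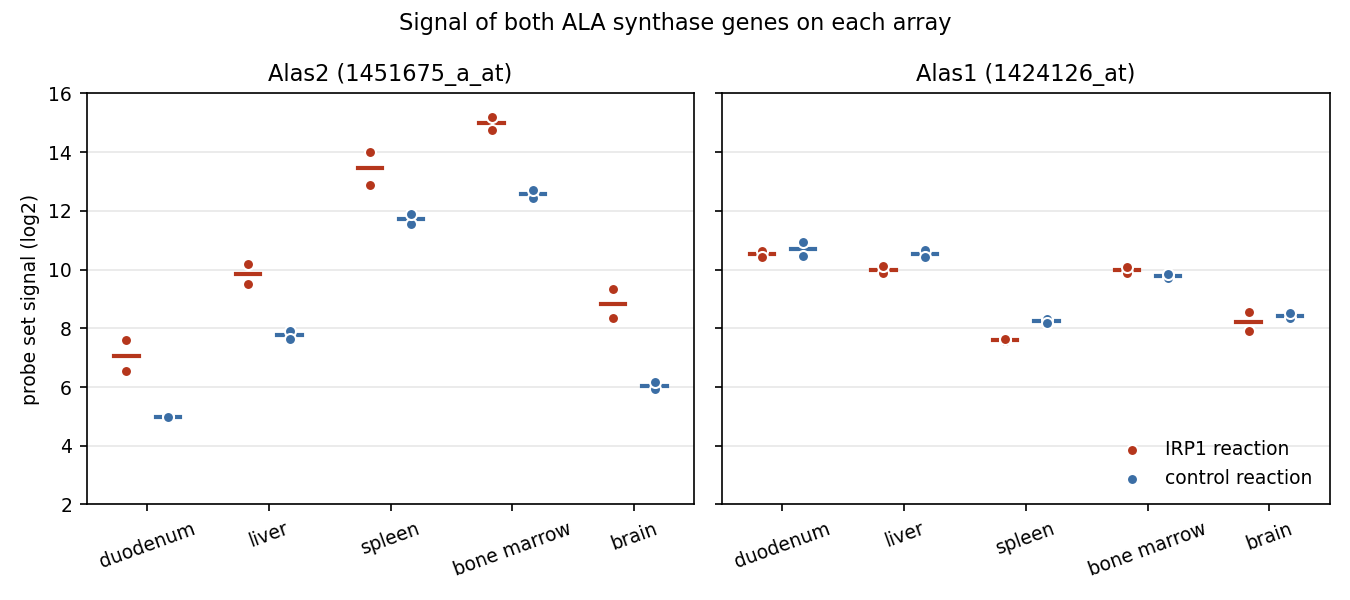
Log2 signal of Alas2 (left) and of the brighter Alas1 probe set (right) on each of the 20 arrays, by tissue on the horizontal axis, IRP1 reactions left of control reactions, with points for arrays and lines for means of 2 arrays. Alas2 lies higher with IRP1 in all 5 tissues, at 14.77 and 15.19 against 12.42 and 12.72 in bone marrow. The Alas1 groups lie closer together, with both IRP1 arrays below both controls in liver and spleen and above both in bone marrow.

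Averaged over the tissues, the change of Alas2 was log2 2.22 (SE 0.17, 95% interval 1.85 to 2.58, limma adjusted p = 1.18e-06). By size this increase ranked 15th of the 45037 probe sets and 9th among genes. Across all probe sets, 0.773% were called higher and 1.03% lower in this mean. Changing the normalization, the filter or the model, or leaving out any array, kept the call and held the value between 2.10 and 2.33.

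In brain the estimate was log2 2.80 (SE 0.39, limma adjusted p = 0.0042), a 6.97-fold increase. In bone marrow it was 2.41 (SE 0.39, limma adjusted p = 0.0133) and in liver 2.08 (SE 0.39, limma adjusted p = 0.0447). Alas2 was not called in duodenum, at 2.08 (SE 0.39, limma adjusted p = 0.0548), or in spleen, at 1.72 (SE 0.39, limma adjusted p = 0.156). Over all probe sets the share called in either direction was 0.124% in brain, 0.131% in bone marrow, 0.184% in liver, 0.104% in duodenum and 0.102% in spleen. The order of these estimates cannot be read. The bone marrow IRP1 signals lay near the top of the scale and the duodenum control below the array medians, where changes can be compressed. A limma F-test called no difference among the 5 estimates (F = 1.11, adjusted p = 0.936), and it called 0.0111% of all probe sets. A difference between tissues in how far Alas2 rose was thus not detectable with 2 arrays a group.

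Single-tissue calls of Alas2 rested on few arrays. Without bone marrow control replica 1 the bone marrow change was 2.26 (limma adjusted p = 0.278), without IRP1 replica 1 it was 2.61 (limma adjusted p = 0.0751) and without IRP1 replica 2 it was 2.20 (limma adjusted p = 0.283). In brain the call was lost without IRP1 replica 1 (2.31, limma adjusted p = 0.0688) or control replica 1 (2.68, limma adjusted p = 0.0552). In spleen a call was gained without IRP1 replica 1 (2.28, limma adjusted p = 0.0171). The duodenum change reached a call without its IRP1 replica 2 (2.61, limma adjusted p = 0.032), and the liver call was lost in 14 of 20 such fits.

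The gap between the 2 IRP1 arrays of a tissue was wide for Alas2. It was 1.05 in duodenum, 0.70 in liver, 1.13 in spleen, 0.42 in bone marrow and 0.98 in brain, on the log2 scale. The control arrays of the same tissues stood 0.05, 0.25, 0.33, 0.30 and 0.24 apart, less than the IRP1 arrays in 5 of 5 tissues. Over all probe sets the median gap was 0.16 to 0.26. The spread of Alas2 in the fit was larger than that of 98.3% of probe sets, and this is the spread that its standard errors carry.

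**Figure D2:**
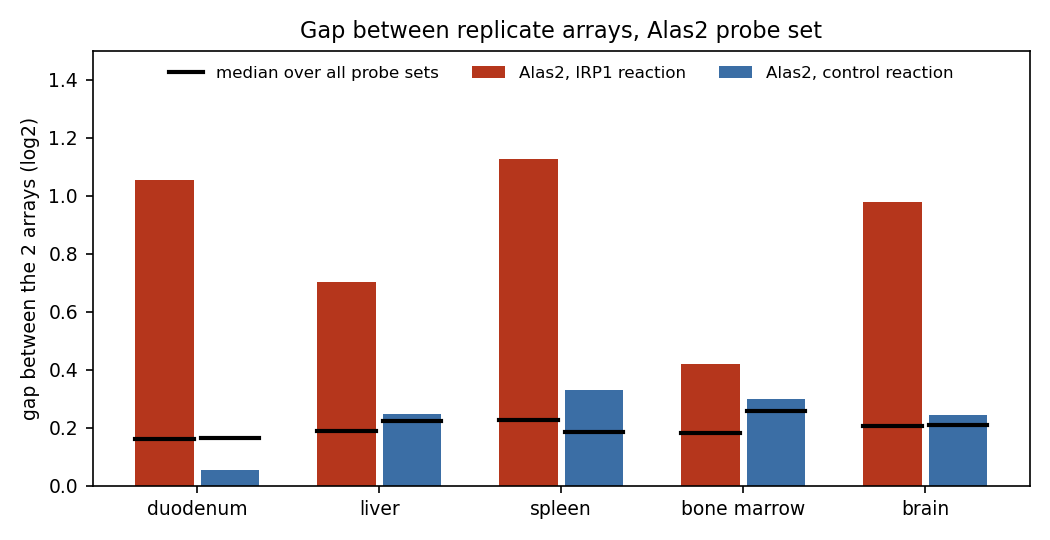
Absolute gap in log2 signal between the 2 replicate arrays for Alas2, by tissue, with bars for the IRP1 reaction left of the control reaction and black lines for the median gap of all probe sets in the same reaction. The IRP1 bar is the taller in all 5 tissues, at 1.13 against 0.33 in spleen.

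Alas1, which catalyses the same step outside the red cell lineage, was not called. Its brighter probe set (1424126_at) read 7.57 and 7.63 in spleen with IRP1, against 8.31 and 8.19 in the control. In liver it read 9.88 and 10.11 with IRP1, against 10.67 and 10.42 in the control. Both IRP1 arrays were below both controls in these tissues. In bone marrow it read 9.88 and 10.10 with IRP1, against 9.71 and 9.86 in the control, so there the order was the opposite. The nearest of these, 9.88 and 9.86, stood closer than the median gap between replicate arrays. The groups overlapped in duodenum, at 10.62 and 10.42 with IRP1 against 10.95 and 10.47 in the control, and in brain, at 7.91 and 8.54 against 8.34 and 8.51.

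In the mean of the tissues the brighter Alas1 probe set changed by -0.28 (SE 0.09, limma adjusted p = 0.137) and the other, 1455282_x_at, by -0.06. The first of these reached a call without brain IRP1 replica 2 (-0.34, limma adjusted p = 0.0371). The difference between the synthases was itself tested on the per-array difference of their signals, with the reaction labels exchanged within each tissue. Alas2 rose more than Alas1 by log2 2.50, a 5.64-fold ratio of the changes, with 2.27 in duodenum, 2.63 in liver, 2.37 in spleen, 2.20 in bone marrow and 3.00 in brain. The exact permutation p was 0.000257, the smallest that the 7776 arrangements allow, and 0.000322 after adjustment over the 10 pairs compared.

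Of the 18 probe sets of the 7 enzymes other than Alas2, 0 were called higher and 1 was called lower in the mean of the tissues by limma, beside the shares of 0.773% and 1.03% over all probe sets. Without adjustment, 0 were higher and 4 were lower at p under 0.05, a threshold that 5.97% of all probe sets passed upward and 10.4% downward. Their changes ran from -0.41 to 0.22 with a median of -0.05, against a median of -0.01 over all probe sets, and 14 of 18 lay below 0, as did 51.8% of all probe sets. In bone marrow 12 of the 18 lay above 0, where 40.9% of all probe sets lay below it. In single tissues 0 of the 18 were called in either direction. At unadjusted p under 0.05, 1 was higher and 3 were lower in liver, beside 4.82% and 8.69% of all probe sets. In spleen 0 were higher and 4 lower, beside 2.64% and 6.87%, and the other tissues had none. Among the 18, Cpox 1440747_at, Ppox 1441862_at and Fech 1427696_at were dim, averaging 4.42, 5.47 and 5.72 over the arrays. Array medians were 5.5 to 5.6, and the absence of a call says little for such probe sets.

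Alad, the enzyme of the step after ALA synthase, held the lower call. Its brighter probe set (1424877_a_at) read 9.42 and 9.49 in liver with IRP1, against 10.36 and 9.92 in the control, and 8.97 and 9.38 in spleen with IRP1, against 9.94 and 9.89 in the control. It read 8.46 and 8.30 in duodenum with IRP1, against 8.95 and 8.52 in the control, and 6.81 and 7.11 in brain with IRP1, against 7.63 and 7.13 in the control. These 4 tissues had both IRP1 arrays below both controls, in brain by a narrow margin (7.11 against 7.13). How many of all probe sets show such an order was not counted. In bone marrow the groups overlapped, at 11.71 and 11.63 with IRP1 against 11.35 and 11.67 in the control.

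The mean change of this Alad probe set was -0.41 (SE 0.10, limma adjusted p = 0.0454), to 0.754 of the control signal. The call stood close to its threshold: the adjusted p was above 0.05 in 14 of the 20 fits that left out an array, with values from -0.46 to -0.36 over all 20. The call held without replica 2 of the duodenum, liver or brain control, of the spleen or brain IRP1 reaction, or without replica 1 of the bone marrow control. The other Alad probe set, 1457306_at, changed by -0.03 and was not called.

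The enzymes of the porphyrin ring steps were not called. Uros, the uroporphyrinogen III synthase, changed by 0.08 and 0.12 in its 2 probe sets. Urod, the uroporphyrinogen decarboxylase, changed by -0.04 and -0.08. Their groups overlapped in some tissues, and limma's adjusted p stayed above 0.22 for all 4 under every alternative run.

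The oxidases of the pathway differed among their probe sets. Cpox, the coproporphyrinogen oxidase, changed by -0.34 (SE 0.13, limma adjusted p = 0.186) in its brightest probe set and by -0.02 and -0.10 in the others. In liver that brightest Cpox probe set read 7.63 and 7.95 with IRP1, against 8.46 and 8.78 in the control. Ppox, the protoporphyrinogen oxidase, changed by -0.36 (SE 0.10, limma adjusted p = 0.0626) in its brightest probe set. In spleen it read 8.15 and 8.56 with IRP1, against 9.20 and 8.88 in the control. The IRP1 arrays lay below the controls for both genes in those tissues. By these brightest probe sets, the Cpox groups overlapped in duodenum (change 0.07), bone marrow and brain. The Ppox groups overlapped in bone marrow alone. The other Ppox probe sets changed by -0.01 and, in the dim 1441862_at, by 0.22, the highest value among the 18.

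Ppox by its brightest probe set passed the threshold without spleen IRP1 replica 2 (-0.41, limma adjusted p = 0.0476) or brain IRP1 replica 2 (-0.42, limma adjusted p = 0.023). These are the same fits in which the number of lower calls among the 18 was 2 and 3.

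Ferrochelatase, which works at the other end of the pathway, was not called. Its brightest probe set (1418699_s_at) read 13.55 and 13.92 in bone marrow with IRP1, against 13.47 and 13.73 in the control. In spleen it read 10.87 and 11.76 with IRP1, against 11.72 and 12.20 in the control. The groups overlapped in both tissues. In the mean, Fech changed by -0.24 (SE 0.12, limma adjusted p = 0.349) in this probe set and by -0.003, -0.22 and 0.07 in the other 3, with 0 of 4 called.

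**Figure D3:**
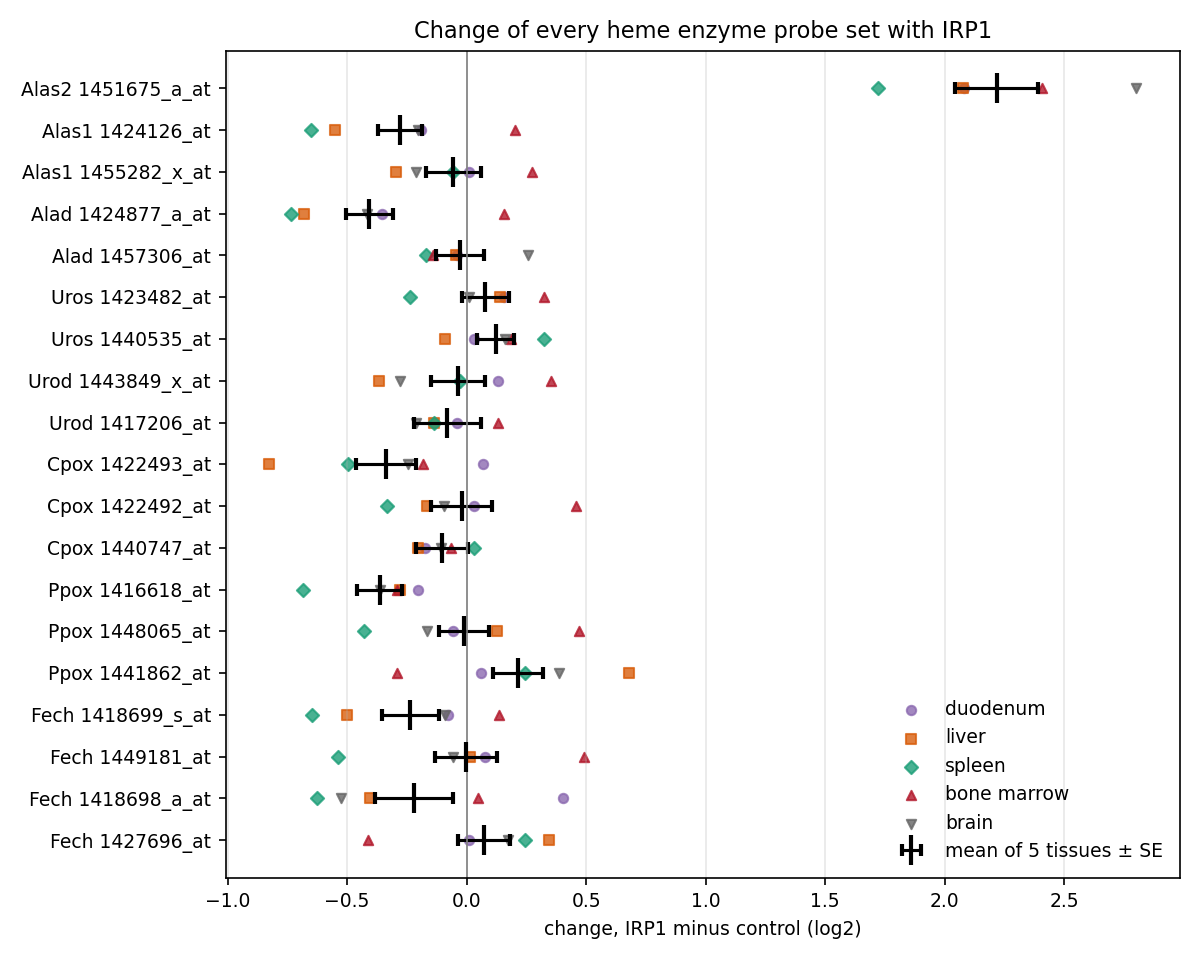
Change in log2 signal, IRP1 minus control, of all 19 heme enzyme probe sets (rows), with a symbol for each tissue and a black bar for the mean of the 5 tissues with its standard error. Alas2 stands at 2.22 with every tissue above 1.7, and the means of the other 18 lie between -0.41 and 0.22.

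Alas2 rose more than each of the other enzymes by the same exact permutation test. The difference in change was log2 2.62 from Alad, 2.14 from Uros, 2.25 from Urod, 2.55 from Cpox, 2.58 from Ppox and 2.45 from Fech. For all 6 the exact p was 0.000257 (0.000322 adjusted over the 10 pairs), the smallest possible, and Alas2 had the larger change in 5 of 5 tissues. Since the pairs share the Alas2 values, they are not independent of each other.

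Compared with 3 mRNAs that also carry an IRE in the 5' UTR, Alas2 rose further in the mean of the tissues. The difference was log2 1.38 from Fth1, the ferritin heavy chain (exact permutation p = 0.000257, adjusted 0.000322). It was 0.86 from Slc40a1, the iron exporter ferroportin (exact permutation p = 0.00566, adjusted 0.00629), and 0.87 from Epas1, the hypoxia factor HIF-2 alpha (exact permutation p = 0.00746, adjusted 0.00746). Whether these differences vary between tissues was not tested. By the estimates, Alas2 exceeded Slc40a1 by 1.87 in duodenum and by 0.01 in brain. In duodenum Slc40a1 was high on the scale in both reactions, at 13.94 and 13.78 with IRP1 against 13.69 and 13.61. The Alas2 estimate was the lower beside Epas1 in bone marrow (log2 -0.54). There the Alas2 IRP1 signals lay near the top of the scale, which can compress its change. Fth1 with IRP1 lay near the top of the scale too, at 15.17 and 15.14 in duodenum and 14.90 and 15.19 in bone marrow. Its change can be compressed likewise, so the size of its difference from Alas2 cannot be read closely. The difference from Slc40a1 also turned on the choice of probe set, since with the mean of the probe sets of each gene it was 0.13 (exact permutation, adjusted p = 0.621).

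The control reactions, in which no recombinant IRP1 was present, give each enzyme's background signal by tissue. Alas2 averaged 12.57 ± 0.21 in bone marrow, 11.73 ± 0.23 in spleen, 7.78 ± 0.18 in liver, 6.04 ± 0.17 in brain and 4.99 ± 0.04 in duodenum (SD of 2 arrays, log2). Bone marrow exceeded duodenum by log2 7.58 on this scale (limma adjusted p = 9.73e-11). No fold is given because the duodenum signal lay below the array medians, where a difference can be compressed. Bone marrow and spleen did not differ beyond the test (log2 0.84, limma adjusted p = 0.151), while spleen exceeded liver by 3.95 (limma adjusted p = 3.37e-07), liver exceeded brain by 1.73 (limma adjusted p = 0.00163) and brain exceeded duodenum by 1.05 (limma adjusted p = 0.0392). In such tissue RNA, fewer cells of a type and less RNA per cell cannot be told apart.

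Markers of the red cell lineage followed the same tissues in their mean, but not each by itself. Slc4a1, Epb42, Klf1, Gata1, Rhag and Kel were each highest in bone marrow and next in spleen. Hba-a1 stayed between 3.58 and 4.47 on all 20 arrays, below the array medians of 5.5 to 5.6. Such a dim probe set says little about the level of its mRNA. Ank1 read 10.12 to 11.07 in brain, against 10.02 to 10.77 in spleen. The mean log2 signal of the 8 erythroid markers matched, of 14 listed, lay between 10.17 and 10.65 on the 4 bone marrow arrays and between 8.50 and 9.11 on the 4 spleen arrays, and between 4.86 and 5.39 on the arrays of liver, brain and duodenum. None of the 8 was called between IRP1 and control in any tissue or in the mean, where their median change was 0.06 beside 2.22 for Alas2. In bone marrow this marker level was 10.45 and 10.65 with IRP1, against 10.17 and 10.48 in the control. The part of the erythroid share in the tissue levels was not tested.

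Alas1 was ordered differently from Alas2 across the control reactions. Its brighter probe set averaged 10.71 ± 0.34 in duodenum, 10.54 ± 0.18 in liver, 9.79 ± 0.11 in bone marrow, 8.43 ± 0.12 in brain and 8.25 ± 0.09 in spleen. Its signal in bone marrow was below that in liver (log2 -0.76, limma adjusted p = 0.00923) and also below that in duodenum (log2 -0.93, limma adjusted p = 0.00223). Duodenum and liver did not differ beyond the test, nor did brain and spleen by this probe set. The other Alas1 probe set gave the same order of tissues, with spleen called below brain (log2 -0.83, limma adjusted p = 0.0158).

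The later enzymes were mostly highest in bone marrow. Bone marrow had the highest control signal for 16 of the 19 probe sets, the exceptions being both of Alas1, highest in duodenum, and Ppox 1441862_at, highest in liver. Against spleen, 13 of 19 were called higher in bone marrow, beside 6.6% of all probe sets. Against liver 13 of 19 were called higher, beside 17%, and 2, both of Alas1, lower, beside 15.5%. Against brain 17 of 19 were higher, beside 20.8%, and against duodenum 16 of 19 were higher, beside 14%, with both Alas1 probe sets lower, beside 15.6%.

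Fech had the widest tissue span after Alas2. Its brightest probe set averaged 13.60 ± 0.19 in bone marrow, 11.96 ± 0.34 in spleen, 10.67 ± 0.40 in liver, 9.71 ± 0.06 in duodenum and 9.06 ± 0.12 in brain. Alad came next, at 11.51 ± 0.23 in bone marrow, 10.14 ± 0.32 in liver, 9.91 ± 0.04 in spleen, 8.73 ± 0.30 in duodenum and 7.38 ± 0.35 in brain. Liver stood beside spleen for Alad, and these tissues were not separated by the test (log2 -0.23, spleen minus liver, limma adjusted p = 0.429).

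Uros and Urod had narrower spans. Uros averaged 11.26 ± 0.16 in bone marrow, 10.42 ± 0.40 in spleen, 9.55 ± 0.05 in liver, 8.95 ± 0.20 in brain and 8.80 ± 0.15 in duodenum. Urod averaged 12.30 ± 0.24 in bone marrow, 11.37 ± 0.34 in spleen, 10.28 ± 0.27 in liver, 10.08 ± 0.03 in duodenum and 9.40 ± 0.01 in brain. Both exceeded every other tissue in bone marrow by a call in these brightest probe sets.

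Ppox averaged 9.86 ± 0.17 in bone marrow and 9.04 ± 0.22 in spleen, and its means in liver, brain and duodenum ran from 6.83 to 7.45. By its brightest probe set, Cpox was the exception among the later enzymes. It averaged 8.71 ± 0.34 in bone marrow, 8.62 ± 0.23 in liver and 8.02 ± 0.29 in spleen, which did not differ beyond the test, and 6.90 ± 0.47 in brain and 6.80 ± 0.02 in duodenum. The other Cpox probe sets were called higher in bone marrow than in liver. The differences were log2 1.00 for 1422492_at (limma adjusted p = 0.0122) and 2.04 for the dim 1440747_at (limma adjusted p = 3.9e-06). Against spleen, 1440747_at was called higher in bone marrow (log2 1.62, limma adjusted p = 0.000162) and 1422492_at was not called (log2 0.66).

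Along the Alas2 order of tissues, 8 of the 19 probe sets were called higher in spleen than in liver, beside 22% of all probe sets, and 3, both of Alas1 and 1 of Alad, lower, beside 16.4%. In liver 15 were called higher than in brain, beside 20.4%, and 0 lower. In brain 1, that of Alas2, was called higher than in duodenum, beside 19%, and 5, both of Alas1 and 1 each of Alad, Urod and Cpox, lower, beside 20.6%.

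**Figure D4:**
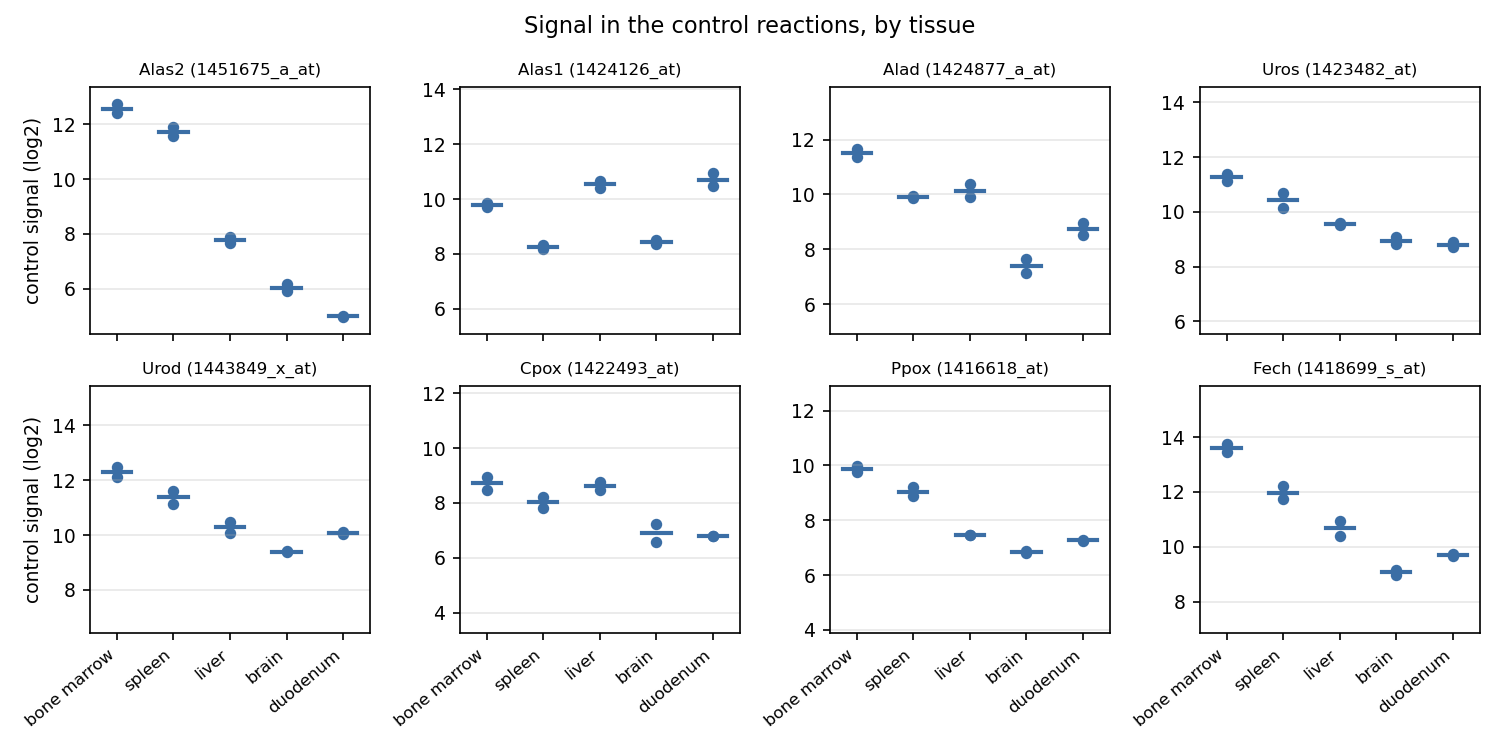
Log2 signal in the control reactions of the brightest probe set of each enzyme, by tissue, with points for the 2 arrays and lines for their mean, on panels that all span 9 log2 units. Alas2 runs from 12.57 in bone marrow to 4.99 in duodenum, Fech from 13.60 to 9.06 in brain, and Alas1 is highest in duodenum at 10.71.

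Other genes of heme metabolism came from 3 lists, each gene by its brightest probe set in the mean of the tissues. Of 12 measured genes for mitochondrial supply and heme transport, 0 were called, beside 0.773% of all probe sets called higher and 1.03% lower. The largest changes there were -0.40 for Abcb6, a porphyrin transporter of mitochondria and other membranes (limma adjusted p = 0.0848), and 0.25 for Abcg2, an exporter of porphyrins (limma adjusted p = 0.267). Abcb6 reached a call without bone marrow control replica 1 (-0.46, limma adjusted p = 0.0409) or brain IRP1 replica 2 (-0.47, limma adjusted p = 0.0222), and Abcg2 without spleen IRP1 replica 1 (0.35, limma adjusted p = 0.0486). Slc25a37, the mitoferrin that feeds iron to ferrochelatase in red cell precursors, changed by -0.03.

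Of 6 genes that act on ALA synthase or sense heme, 0 were called, beside 0.773% of all probe sets called higher and 1.03% lower. The largest changes were 0.22 for Clpx, the mitochondrial unfoldase that activates ALA synthase (limma adjusted p = 0.491), and 0.15 for Nr1d1, the heme-binding nuclear receptor Rev-erb alpha (limma adjusted p = 0.593). Their median was -0.01, the same as over all probe sets.

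Of 4 genes of heme breakdown, 1 was called lower and 0 higher, beside 1.03% and 0.773% of all probe sets. The gene called lower was Blvrb, the biliverdin reductase B, which changed by -0.39 (SE 0.09, limma adjusted p = 0.0407). It read 8.96 and 9.30 in spleen with IRP1, against 9.99 and 10.20 in the control, with no overlap. In bone marrow both IRP1 arrays lay above both controls, at 10.75 and 10.67 against 10.48 and 10.66. The nearest of these stood closer than the median gaps between replicate arrays there (0.18 and 0.26). The call was lost in 14 of the 20 fits that left out an array, with changes between -0.44 and -0.34, and it held without replica 2 of the liver or brain control, of the duodenum, spleen or brain IRP1 reaction, or without replica 1 of the bone marrow control. Hmox2, the constitutive heme oxygenase, changed by -0.36 (limma adjusted p = 0.0664), Blvra, the other biliverdin reductase, by -0.12, and Hmox1, the inducible heme oxygenase, by 0.01. Hmox2 passed the threshold without spleen IRP1 replica 2 (-0.41, limma adjusted p = 0.0389), brain IRP1 replica 2 (-0.42, limma adjusted p = 0.0156) or brain control replica 2 (-0.40, limma adjusted p = 0.0397).

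Genes whose log2 signal was most like that of Alas2 were found by Pearson correlation, among probe sets with a single gene symbol. The 4 arrays of a tissue are not independent points, so these values are a description. Over the 20 arrays they were 1600010M07Rik (r = 0.967), Smc5 (0.948), Ank1 (0.941), Mylip (0.936) and Acer3 (0.930). Smc5 is a subunit of a chromosome-maintenance complex, Ank1 is the ankyrin of the red cell membrane, Mylip degrades the LDL receptor, and Acer3 is a ceramidase. Ank1 is also on the erythroid marker list, there by another probe set. Their changes with IRP1 in the mean of the tissues were log2 0.34, 0.20, 0.33, 0.45 and 0.23 in that order, given with no test because the IRP1 arrays helped to choose them.

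Over the 10 control arrays alone the most alike were Ifnar2 (r = 0.985), Tbx6 (0.985), Slc48a1 (0.984), Tmem131l (0.982) and Car1 (0.981). Slc48a1 is a heme transporter and Car1 a carbonic anhydrase of red cells, while Ifnar2 is a subunit of the type I interferon receptor and Tbx6 a T-box factor. Among the enzymes themselves, Uros was the most like Alas2 in the controls (0.967), then Ppox (0.950), Fech (0.941), Urod (0.920), Alad (0.796) and Cpox (0.745), and Alas1 ran the other way (-0.332). With the IRP1 arrays included these values were 0.900 for Uros, 0.798 for Ppox, 0.831 for Fech, 0.815 for Urod, 0.676 for Alad, 0.609 for Cpox and -0.328 for Alas1.

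Across the series, array medians and maxima were close, and arrays of a tissue correlated at 0.978 to 0.994 against 0.745 to 0.951 between tissues. Array spreads (SD) ran from 1.90 to 2.24 and differed between reactions in some tissues. In liver they were 1.90 and 1.95 with IRP1, against 2.11 and 1.99 in the control. Bone marrow went the other way, at 2.17 and 2.22 with IRP1 against 2.05 and 2.18. Hybridization controls read low on 3 arrays, at log2 -1.0 relative to the median array on spleen IRP1 replica 2, -1.2 on spleen control replica 2 and -0.68 on bone marrow control replica 1. Without these 3 arrays the mean change of Alas2 kept its call, the bone marrow change was 2.26 (limma adjusted p = 0.131), and 0 of the 18 other probe sets were called. Each tissue's own marker list was highest on its own arrays, and pancreatic acinar markers were also high in duodenum (11.97 to 14.02) and to a lesser degree in spleen (8.40 to 9.26), with 5.11 to 6.34 in liver, bone marrow and brain.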

How the data were processed

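Signals of 45101 probe sets on 20 arrays were taken from the deposited table, on the log2 scale in which the authors gave them. Per the submitters' processing notes, the tools were RMA, MAS5 and GCOS, and the series design text offers RMA or MAS5 followed by quantile normalization without saying which the authors used for the table. Values near the top and the floor of this scale compress changes. The 64 Affymetrix control probe sets were left out. Of the 45037 tested, 34945 carry 1 gene symbol in the platform annotation (18193 genes), 932 several and 9160 none.

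A linear model with 10 groups was fitted to the log2 values with limma 3.58.1 (lmFit, eBayes) in R 4.3.3, with 10 residual degrees of freedom and a prior of 6.14. Errors beside changes are the model's standard errors. Tests are two-sided. Pair differences used exact permutation within tissues. Where a gene has several probe sets, the one with the highest mean over the arrays stands for it. The number of arrays limits precision. The model was also run on simulated data.

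Every enzyme probe set is reported. For the other lists, those called and up to 2 more with the largest changes are named, and Slc25a37 and Hmox1 were added after their values were seen. The 5 genes most like Alas2 are named over each set of arrays. Members and lists were chosen with earlier results of these data known. Alternatives were quantile normalization, median centring, a floor at log2 5, leaving out probe sets with a mean under log2 5, array spread as a covariate, a replicate block, array weights, an intensity trend, tissues fitted alone, and arrays left out. Promoter windows came from RefSeq (GRCm38.p6). Python 3.11.15 and matplotlib 3.10.9 drew the figures.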

Additional observations from a re-analysis of the deposited data

Results flagged for a closer look

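Some enzyme probe sets had both IRP1 arrays above both controls in bone marrow and both IRP1 arrays below both controls in another tissue. The share of all probe sets with such an order was not counted. For Alas1 (1424126_at) the change in bone marrow exceeded that in liver by log2 0.75 and that in spleen by 0.85. For Urod (1443849_x_at) the bone marrow change exceeded that in liver by 0.72 and that in brain by 0.63. For Cpox (1422492_at) it exceeded that in spleen by 0.79. In limma's test of the difference itself, adjusted over all probe sets, none of these 5 was called: the adjusted p was 0.416 and 0.586 for Alas1, 0.471 and 0.744 for Urod and 0.594 for Cpox. At unadjusted p both Alas1 differences were under 0.05 (0.0211 against liver, 0.0105 against spleen). Dixon's rule for a stray sample was not applied, since every group has 2 arrays.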

How the results depend on the processing

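The mean change of Alas2 kept its direction and call under every alternative run (2.10 to 2.33, adjusted p at most 0.000271), and 0 other enzyme probe sets were called higher in any. The duodenum change of Alas2 gained a call with quantile normalization (2.05, adjusted p = 0.0491), dim probe sets left out (2.08, adjusted p = 0.019), array spread as covariate (2.08, adjusted p = 0.0378), array weights (2.08, adjusted p = 0.00694), an intensity trend (2.08, adjusted p = 0.0243) and without the 3 arrays with low hybridization controls (2.08, adjusted p = 0.0483). The liver call was lost with a floor at log2 5 (2.08, adjusted p = 0.0709) and with the array spread as covariate (2.27, adjusted p = 0.0531). The bone marrow call was lost with quantile normalization (1.88, adjusted p = 0.0813), a floor (2.41, adjusted p = 0.138) and without those 3 arrays (2.26, adjusted p = 0.131), and the brain call with brain fitted alone (2.80, adjusted p = 0.387). The lower count among the other enzymes was 0 with a floor, with the covariate, with the trend and without the 3 arrays, against 1.

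The labels do not say that replica numbers pair the samples, and the data gave a mixed hint: deviations of same-numbered arrays correlated at 0.27 in duodenum, 0.53 in spleen and 0.12 in brain, but at -0.07 in liver and -0.04 in bone marrow, so the numbers were not used as pairs. With replica number as a block, duodenum gained a call for Alas2 (2.08, adjusted p = 0.0193), the Alad call was lost (-0.41, adjusted p = 0.0583), and Cpox 1422493_at (-0.34, adjusted p = 0.0404) and Abcb6 (-0.40, adjusted p = 0.0218) gained one.

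Leaving out 1 array at a time gave Alas2 changes of 1.55 to 2.61 in duodenum, 1.73 to 2.43 in liver, 1.16 to 2.28 in spleen, 2.20 to 2.61 in bone marrow and 2.31 to 3.29 in brain, and 0 to 3 lower calls among the other enzymes. In duodenum a call was gained without either spleen IRP1 or either brain IRP1 array (2.08, adjusted p = 0.0177 and 0.0381) and without its own IRP1 replica 2. The liver call held in 6 of 20 such fits, those without an IRP1 array of duodenum, spleen or brain. The Alad call was also lost with a floor (adjusted p = 0.083), the covariate (-0.28, adjusted p = 0.125), the trend (adjusted p = 0.0639) and without the 3 arrays (-0.48, adjusted p = 0.0539), and the Blvrb call with those same 4 settings. Abcg2 gained a call with quantile normalization (0.36, adjusted p = 0.0172) and the covariate (0.41, adjusted p = 0.028). Over all probe sets 348 were called higher and 464 lower in the mean of the tissues, against 607 and 517 with quantile normalization, 325 and 655 with median centring, 315 and 326 with a floor, 568 and 144 with the covariate, and 216 and 256 without the 3 arrays. The causes were not tested. Over the 19 enzyme probe sets and every pair of tissues, 133 control contrasts were called in either direction, and 124 to 145 over the alternatives. Shares of all probe sets stand beside the single pairs described earlier, and none was counted over all pairs together.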
